A study of Mus musculus with 36 samples.

Results

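The combination of depleted zymosan with 3',3'-cGAMP was compared with each of the 2 ligands alone in mouse bone marrow-derived dendritic cells, by ATAC-seq, to describe which open chromatin loci each ligand added to the other. ATAC-seq counts insertions of a transposase, which enters open chromatin more readily than closed chromatin. The members were chosen by their sample titles: 2 libraries of the combination (ZcG), 2 of depleted zymosan alone (Z) and 2 of 3',3'-cGAMP alone (cG), together 6 of the 36 libraries in the series. The 2 unstimulated libraries (Ctrl) served as the background. Cells of all groups were grown with GM-CSF from the bone marrow of female C57BL/6J mice aged 6 to 8 weeks, and the strain label reads C57BL/6. They were exposed to ligand for 6 h, and 50000 cells entered each library. Doses are not given in the labels, which also do not say whether the 2 libraries of a group came from separate cultures or animals, so p-values measure only the spread between these samples, which may be technical.

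Zymosan is a particle of yeast cell wall rich in beta-glucan. In the depleted form it has been treated to remove its Toll-like receptor activity, and it is used as a ligand of Dectin-1, a phagocytic receptor that signals through the kinase Syk, the adaptor CARD9 and NF-kappaB. 3',3'-cGAMP is a bacterial-type cyclic dinucleotide that binds STING, an adaptor of the endoplasmic reticulum. STING recruits the kinase TBK1, which activates the transcription factor IRF3 and with it the gene of interferon beta. Secreted interferon then acts on its receptor and raises interferon-stimulated genes, whose promoters carry the interferon-stimulated response element.

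Total counts ranged from 19097027 to 39977088 per library over the 36 libraries and from 21303203 to 29982120 over the 6. A single peak spanning the mitochondrial genome took 61.9% and 60.1% of them in Ctrl, 62.4% and 60.9% in Z, and 62.8% and 63.1% in ZcG, but 45% and 47.3% in cG. This peak was left out, and 119464 of 119751 peaks were tested. Levels are given in CPM, the share of a library's remaining counts scaled by TMM, in replicate order. Log2 fold changes come from edgeR, and a peak was called where the adjusted p-value was under 0.05. Their standard errors were derived from the fold change and the F statistic of its test. They therefore rest on the spread fitted over all 36 libraries, not only on the libraries compared. Replicates of a group correlated at 0.912 to 0.940 across peaks, and libraries of different groups among Ctrl, Z, cG and ZcG at 0.828 to 0.910. In bulk samples, fewer cells with an open locus and less opening per cell cannot be told apart. Of the markers of the labelled cell type, all 7 had a peak at the gene start, though that of Zbtb46 stayed at or under 1.64 CPM, and their summed level was 82.5 to 106 CPM over Ctrl, Z, cG and ZcG. All 8 macrophage markers also had one, at a summed 158 to 196 CPM. So did 3 of 5 plasmacytoid dendritic, 2 of 8 neutrophil, 2 of 6 mast and 2 of 6 B cell markers, and 0 of 6 T and NK cell markers.

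Addition of 3',3'-cGAMP to depleted zymosan changed 10842 peaks. Against Z, 4928 peaks were higher in ZcG (4.13% of tested peaks) and 5914 were lower (4.95%), with median log2 fold changes of 1.37 and -1.12 among the called peaks. Addition of depleted zymosan to 3',3'-cGAMP changed fewer peaks under TMM scaling. Against cG, 2176 peaks were higher in ZcG (1.82%) and 1250 were lower (1.05%), with medians of 0.85 and -0.83. With 1 library left out, the lone library being assumed to vary like the other groups, the counts against Z were 2576 to 3509 higher and 2726 to 3558 lower, both lowest without the second ZcG library, and those against cG 757 to 1267 higher and 243 to 878 lower, both lowest without the second cG library. Z and ZcG have like mitochondrial shares, whereas the comparison with cG crosses the difference in that share. For that comparison, the ligand and whatever sets the share cannot be told apart. Scaled by total counts instead of TMM, the median of all peaks shifted by -0.38 and 3.27% of the calls against cG were higher, compared with 63.5% under TMM. That scaling also reversed the order of the 2 comparisons, with 18073 peaks called against cG and 10373 against Z.

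**Figure D1:**
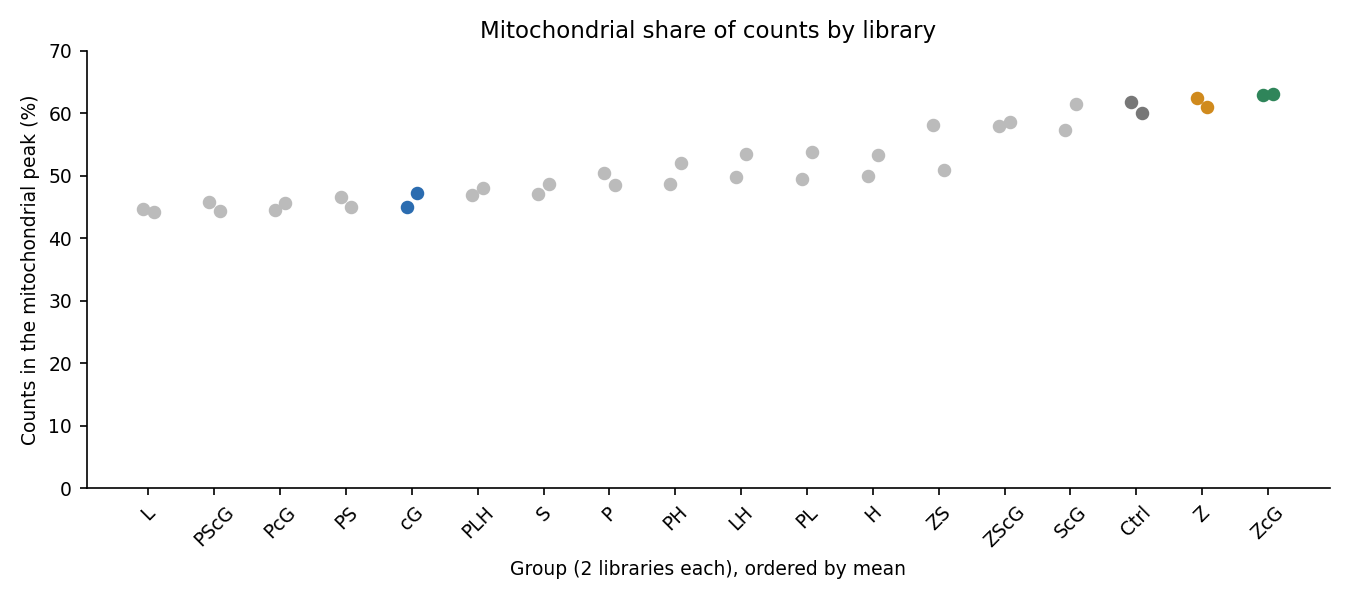
Percentage of each library's counts in the mitochondrial peak, with 2 points per group and groups ordered by their mean. Ctrl (grey), Z (orange) and ZcG (green) lie at 60.1% to 63.1%, whereas cG (blue) lies at 45% and 47.3%. Pale points are the other groups of the series.

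Among gene starts where the ZcG and Z libraries did not overlap, the rise of lowest p-value with 3',3'-cGAMP added was at Ccl5, the gene of a chemokine for T cells and monocytes, which was linked by either gene end. Its peak (mm10 chr11:83521831-83527834, over the gene and the neighbouring Heatr9) stood at 5.13 and 4.44 CPM in Ctrl, 4.85 and 7.03 in Z, 64.3 and 83.5 in cG, and 51.4 and 54.2 in ZcG. Both ZcG libraries thus lay far above both Z libraries and below both cG libraries. The log2 fold change was 3.13 ± 0.15 (SE, n = 2 and 2) against Z (edgeR, adjusted p = 2.4e-44) and -0.49 ± 0.11 against cG (edgeR, adjusted p = 0.0022). That against cG was lost without the first ZcG library (edgeR, adjusted p = 0.067) and without the second cG library (edgeR, adjusted p = 0.33). A second peak at Ccl5 was also higher than with Z, by 1.96. At Ccl4, a chemokine gene of the same cluster, 2 peaks rose against Z, by 1.72 ± 0.15 and 1.67 ± 0.21. The first of them measured 9.18 and 10.5 CPM in Z, 23.3 and 27.7 in cG, and 31.5 and 33.5 in ZcG, so that the ZcG libraries were the highest of the 6. Another peak linked to Ccl4, of higher mean CPM, was not called against Z.

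Ifnb1 encodes interferon beta, the direct product of the STING pathway. The nearest peak (chr4:88519372-88521906, 119 bp outside the gene) measured 3.28 and 1.83 CPM in Ctrl, 1.97 and 2.10 in Z, 8.03 and 8.45 in cG, and 10.9 and 9.46 in ZcG. The distance is to the nearer gene end, which need not be the start, and the peak does not cover the start. The ZcG and Z libraries did not overlap, and the difference was 2.31 ± 0.30 on the log2 scale (edgeR, adjusted p = 7.9e-10). Against cG the difference was 0.30 ± 0.23 (edgeR, adjusted p = 0.57). Depleted zymosan alone gave -0.31 at this peak (edgeR, adjusted p = 0.72). Ifnb1 was the single gene of 14 in the list of cGAS-STING and interferon signalling that was called against Z, and 0 of 14 were called against cG. Over all 13471 genes with a start peak, 5.75% were called higher and 2.56% lower against Z, and 4.95% higher and 1.34% lower against cG, so that the counts of this list are near the share over all genes.

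Cxcl10 encodes an interferon-induced chemokine that binds CXCR3 on activated T cells. Its peak (chr5:92344162-92349984) stood at 18.6 and 19 CPM in Ctrl, 32 and 26.4 in Z, 77.6 and 79.0 in cG, and 56.5 and 60.2 in ZcG, an order in which no 2 of these groups overlap. The differences were 1.00 ± 0.11 against Z (edgeR, adjusted p = 1.1e-12) and -0.42 ± 0.10 against cG (edgeR, adjusted p = 0.0063). The latter was lost without the first ZcG library (edgeR, adjusted p = 0.12) or the second cG library (edgeR, adjusted p = 0.083). Oasl1, an antiviral gene of the 2'-5'-oligoadenylate synthetase family, showed the same order, at 17.7 and 21.5 CPM in Z, 45.7 and 54.1 in cG, and 38.2 and 37.3 in ZcG. Its differences were 0.94 ± 0.13 (edgeR, adjusted p = 2.2e-09) and -0.40 ± 0.11 (edgeR, adjusted p = 0.023), of which the second was lost without either ZcG library (edgeR, adjusted p = 0.11 and 0.16) or without the second cG library (edgeR, adjusted p = 0.40).

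The 250 bases before the start of 4 genes are shown because these peaks carry the results above and below, from the RefSeq promoter table of build GRCm38.p6, 5′ to 3′ on the gene's strand. Capitals mark the interferon-stimulated response element (ISRE, letters GAAANNGAA) and AP-1 (TGANTCA) in Cxcl10 (chr5:92348890-92349139, minus strand), 2 overlapping ISRE matches in Oas3 (chr5:120777660-120777909, minus strand), C/EBP (TTGCNNAA) and kappaB (GGGANTTTC) in Il6 (chr5:30012864-30013113, plus strand), and C/EBP and AP-1 in Serpinb2 (chr1:107511173-107511422, plus strand). AP-1 letters also stand, in lower case, at 2 places in Oas3 and 1 in Il6. A match describes letters and no measured binding. Oas3 was chosen after its values were seen.
Cxcl10: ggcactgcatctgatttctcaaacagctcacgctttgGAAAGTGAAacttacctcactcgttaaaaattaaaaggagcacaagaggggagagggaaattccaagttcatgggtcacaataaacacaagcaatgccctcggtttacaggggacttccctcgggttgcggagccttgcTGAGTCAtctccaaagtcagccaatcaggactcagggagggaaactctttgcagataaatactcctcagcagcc
Oas3: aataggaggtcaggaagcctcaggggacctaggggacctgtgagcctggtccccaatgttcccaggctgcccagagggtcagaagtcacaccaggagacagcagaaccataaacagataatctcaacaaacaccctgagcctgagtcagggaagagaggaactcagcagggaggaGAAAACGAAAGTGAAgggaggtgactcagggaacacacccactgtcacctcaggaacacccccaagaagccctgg
Il6: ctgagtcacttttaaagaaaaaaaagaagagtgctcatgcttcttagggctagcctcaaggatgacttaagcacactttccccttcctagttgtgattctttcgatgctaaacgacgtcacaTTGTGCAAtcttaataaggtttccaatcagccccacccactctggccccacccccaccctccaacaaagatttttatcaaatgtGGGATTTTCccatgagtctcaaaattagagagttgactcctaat
Serpinb2: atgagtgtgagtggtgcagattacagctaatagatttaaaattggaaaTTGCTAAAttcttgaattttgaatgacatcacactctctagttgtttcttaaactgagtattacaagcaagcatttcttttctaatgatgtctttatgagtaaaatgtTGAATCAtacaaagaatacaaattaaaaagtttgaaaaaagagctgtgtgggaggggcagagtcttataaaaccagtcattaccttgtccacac

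Other gene starts also rose against Z. Rgs1, a brake on chemokine receptor signalling, rose from 28.5 and 23.9 CPM in Z to 64.5 and 57.8 in ZcG, with 63.3 and 65.9 in cG. Its log2 fold change against Z was 1.23 ± 0.12 (edgeR, adjusted p = 3.7e-16), and the ZcG and cG libraries interleaved. Nr1h2, which encodes the oxysterol receptor LXR beta, rose from 12.3 and 13.4 to 31.2 and 29.2 CPM, a change of 1.22 ± 0.15, with 24.5 and 25.2 in cG. Il6, whose product drives acute inflammation, measured 11.9 and 8.71 CPM in Z, 16.8 and 18.2 in cG, and 17.5 and 19.4 in ZcG. Its difference against Z was 0.85 ± 0.17 (edgeR, adjusted p = 9.8e-05) and against cG 0.08 ± 0.15 (edgeR, adjusted p = 0.87). Tnf rose by 0.37 ± 0.11 against Z, from 46.1 and 47.9 CPM to 57.2 and 64.1, a call lost without the second ZcG library (edgeR, adjusted p = 0.19) or the first Z library (edgeR, adjusted p = 0.081).

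**Figure D2:**
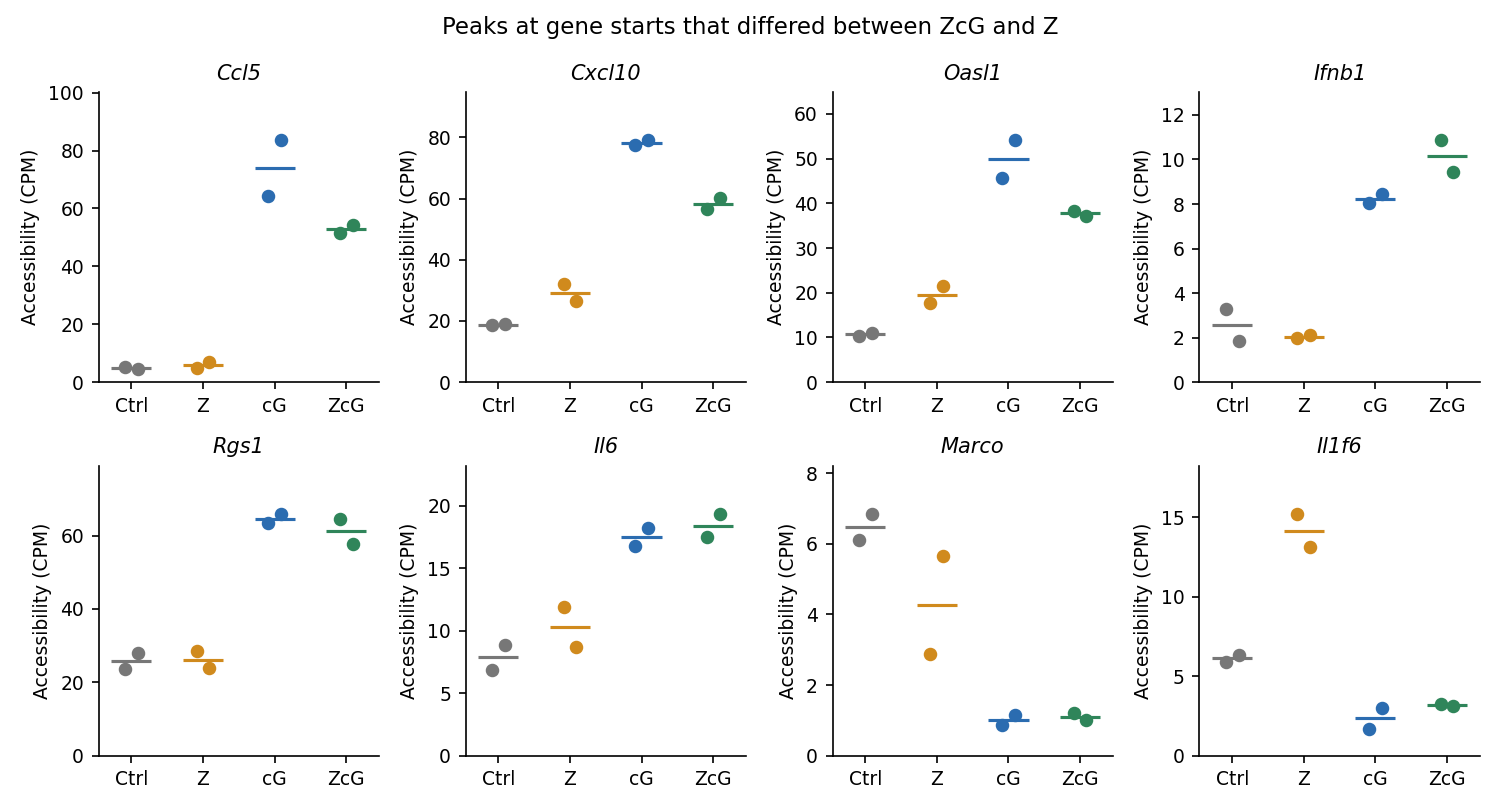
Accessibility in CPM (each axis starts at 0) of 8 gene-start peaks called between ZcG and Z, in 4 groups: Ctrl (grey), Z (orange), cG (blue) and ZcG (green). Each point is 1 library and the short line is the mean of 2. Ccl5, Cxcl10, Oasl1, Ifnb1, Rgs1 and Il6 are higher in both ZcG libraries than in both Z libraries, and Marco and Il1f6 are lower. The Ifnb1 peak lies outside the gene and does not cover its start.

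Other gene starts fell when 3',3'-cGAMP was added. Il1f6, a gene of the interleukin 1 family also called Il36a, measured 5.90 and 6.37 CPM in Ctrl, 15.2 and 13.1 in Z, 1.67 and 3.01 in cG, and 3.26 and 3.12 in ZcG. Z alone was thus the highest group and both cGAMP groups the lowest. The difference against Z was -2.15 ± 0.27 (edgeR, adjusted p = 2.2e-10). Hsd11b1, which regenerates active glucocorticoid, fell by 1.02 ± 0.14 on the log2 scale from 42.2 and 46.8 to 21.4 and 22.6 CPM, and Gsta3, a glutathione transferase gene, fell by 1.72 ± 0.26. Itga1, an integrin gene, measured 25.1 and 26.7 CPM in Z and 11.2 and 8.46 in ZcG, a difference of -1.40 ± 0.19. Gtf3c6, Prdm15 and Traf3ip3 were also among the gene starts of lowest p-value, at -0.68 to -0.99.

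Cxcl2 and Cxcl3, genes of chemokines that attract neutrophils, were lower than with depleted zymosan alone. Cxcl2 measured 42.9 and 43.1 CPM in Ctrl, 82.9 and 76.9 in Z, 53.8 and 57.2 in cG, and 55.1 and 58.0 in ZcG, so that the ZcG libraries sat at the level of cG and below both Z libraries. The difference against Z was -0.50 ± 0.10 (edgeR, adjusted p = 0.00016) and against cG 0.03 ± 0.10 (edgeR, adjusted p = 0.94). Cxcl3 fell by 1.10 ± 0.27 on the log2 scale, a call lost without the second ZcG library (edgeR, adjusted p = 0.16). Of 20 genes of inflammatory cytokines and chemokines, 4 rose against Z (Ccl5, Il6, Tnf and Nos2) and 3 fell (Cxcl2, Cxcl3 and Ccl2), beside 5.75% and 2.56% of all genes. Ccl4 was counted here by its linked peak of highest mean CPM, which was not called. The Nos2 call was lost without the second ZcG or the second Z library (edgeR, adjusted p = 0.18 and 0.48), and that of Ccl2 without any 1 of the 4 (edgeR, adjusted p = 0.10 to 0.28).

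Scavenger receptors, which bind modified lipoproteins and microbes for uptake, were lower with both ligands than with depleted zymosan. Marco measured 6.12 and 6.85 CPM in Ctrl, 2.89 and 5.66 in Z, 0.875 and 1.15 in cG, and 1.21 and 1.00 in ZcG, a difference of -1.97 ± 0.43 against Z (edgeR, adjusted p = 0.00048). Cd36 fell by 1.21 ± 0.31 and Msr1 by 0.94 ± 0.21. Without the second Z library these calls were lost for Marco (edgeR, adjusted p = 0.14), Cd36 (edgeR, adjusted p = 0.060) and Msr1 (edgeR, adjusted p = 0.075), and without the second ZcG library for Cd36 (edgeR, adjusted p = 0.24) and Msr1 (edgeR, adjusted p = 0.093). With Lyz2, the lysozyme gene, 4 of 11 uptake and lysosome genes fell and 0 rose, beside 2.56% and 5.75% of all genes. With peaks linked within 5 kb, 2 of 11 fell. The Lyz2 call was lost without the second ZcG or the first Z library (edgeR, adjusted p = 0.60 and 0.28). Markers of other myeloid cells moved beside these genes. The summed level of the 2 neutrophil markers with a peak (S100a8 and Camp, of 8) was 41.3 and 31.3 CPM in Ctrl, 43.7 and 39.0 in Z, 22.1 and 26.7 in cG, and 26.5 and 22.7 in ZcG, and both were called lower than in Z, S100a8 not without the second ZcG or the first Z library (edgeR, adjusted p = 0.17 and 0.28). Itgax, which marks dendritic cells and other myeloid cells, was also lower, at -0.91 ± 0.17. For the 8 macrophage markers it was 158 and 171 CPM in Z and 159 and 163 in ZcG. The part of cell composition in these results was not tested.

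Of 16 antigen presentation genes, 5 rose and 0 fell against Z, beside 5.75% and 2.56% of all genes. They were Tapbp, which loads peptides on class I molecules, the class I genes H2-D1 and H2-K1, and the class II genes H2-Eb1 and H2-DMa, the last through a peak shared with Brd2. Tapbp measured 18.9 and 19.7 CPM in Z, 29.5 and 39.3 in cG, and 32.3 and 35.6 in ZcG, a difference of 0.81 ± 0.14 against Z (edgeR, adjusted p = 3.9e-06). H2-D1 rose by 0.49 ± 0.11 and H2-K1 by 0.43 ± 0.12. Calls were lost for H2-K1 and H2-DMa without the second ZcG library (edgeR, adjusted p = 0.089 and 0.078), and for H2-Eb1 without the first ZcG or the second Z library (edgeR, adjusted p = 0.064 and 0.31). Against cG, Tapbp differed by -0.02 ± 0.13 and H2-D1 by -0.01 ± 0.11. Against cG, Psmb10, a catalytic subunit of the immunoproteasome, was the single member of the list called, at -0.52 ± 0.14, and not without either ZcG library or the second cG library (edgeR, adjusted p = 0.066 to 0.15).

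Interferon-stimulated genes with both ligands lay between depleted zymosan and 3',3'-cGAMP. Of 24 listed, 22 had a peak at the start. Against Z, 20 of 22 were above 0, 4 were called higher (Cxcl10, Oasl1, Stat2 and Dhx58) and 0 lower, with a median log2 fold change of 0.31, while over all 13471 genes with a start peak 5.75% were called higher and 2.56% lower and the median was 0.08. Against cG, 20 of 22 were below 0, 6 were called lower (Cmpk2, Gbp5, Cxcl10, Dhx58, Oasl1 and Oas3) and 0 higher, with a median of -0.28, while over all genes 4.95% were called higher and 1.34% lower and the median was 0.04. The mean of ZcG lay above Z and below cG for 18 of the 22, compared with 25.8% of all genes. Both ZcG libraries were above both Z libraries for 17 genes (33.7% of all genes) and below both cG libraries for 17 (20.3% of all genes). The number called lower than in cG was 20 of 22 under total-count scaling, 3 in a fit of only Ctrl, Z, cG and ZcG, and between 1 and 5 with any 1 of the 4 libraries left out (2 and 1 without the first and second ZcG library, 5 and 1 without the first and second cG library). The number below 0 was 19 to 21 in those 4 fits. Over all tested peaks, total-count scaling called 17482 of 119464 lower than in cG, with a median log2 fold change of -0.38. Against Z, the calls of Stat2 and Dhx58 were lost without the second ZcG or the second Z library (edgeR, adjusted p = 0.17 to 0.44), and against cG that of Dhx58 without any 1 of the 4 libraries (edgeR, adjusted p = 0.061 to 0.23).

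Cmpk2, a nucleotide kinase gene next to the antiviral Rsad2, measured 37.5 and 37.8 CPM in Z, 45 and 43.7 in cG, and 31.6 and 28 in ZcG, with 31.8 and 27.7 in Ctrl. Its ZcG libraries were below those of both single ligands and at the unstimulated level, though the difference from Z was not called. The difference from cG was -0.57 ± 0.12 (edgeR, adjusted p = 0.00099). It was lost without the second ZcG library (edgeR, adjusted p = 0.074). Gbp5, an interferon-induced GTPase that acts on pathogen vacuoles, measured 18.5 and 18.6 CPM in Z, 26.0 and 39.1 in cG, and 22.3 and 20.6 in ZcG, a difference of -0.61 ± 0.14 from cG that was lost without the second cG library (edgeR, adjusted p = 0.54) or the second ZcG library (edgeR, adjusted p = 0.11). Oas3, whose product makes the activator of RNase L and whose promoter is printed above, measured 25.7 and 30.3 CPM in Z, 44.0 and 50.3 in cG, and 35.2 and 36.2 in ZcG, with a difference of -0.40 ± 0.12 from cG (edgeR, adjusted p = 0.030) that was lost without either ZcG library (edgeR, adjusted p = 0.18 and 0.13) or the second cG library (edgeR, adjusted p = 0.36).

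**Figure D3:**
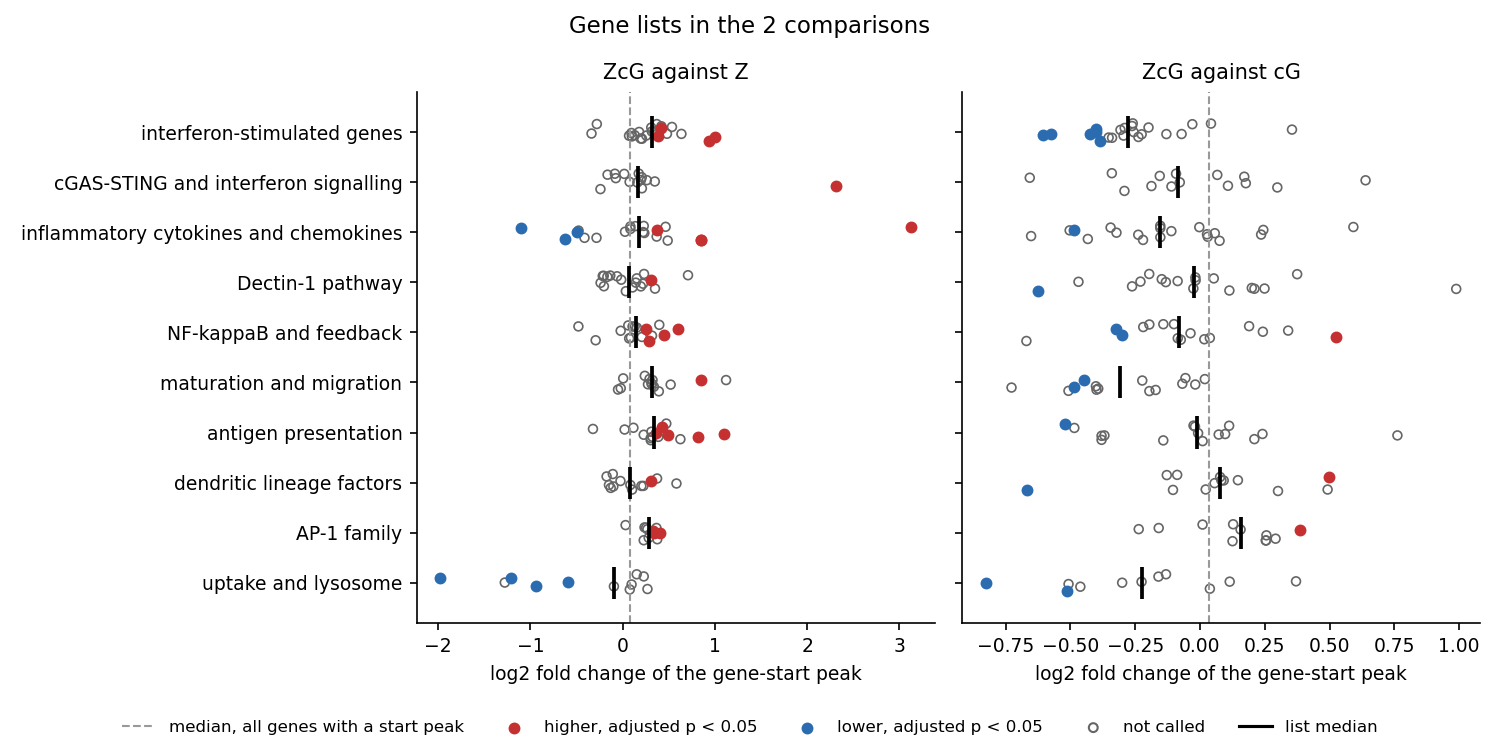
Log2 fold changes of gene-start peaks for 10 gene lists, against Z on the left and against cG on the right. Each point is 1 gene (red, called higher; blue, called lower; open, not called), the black bar is the list median and the dashed line the median of all genes with a start peak. Interferon-stimulated genes have medians of 0.31 on the left and -0.28 on the right.

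Among costimulatory and migration genes, 13 of 14 were below 0 against cG and 2 were called lower. Of all genes, 55.2% were above 0 against cG and 1.34% were called lower. Cd40, the receptor through which T helper cells license dendritic cells, measured 9.83 and 11.8 CPM in Ctrl, 18.2 and 20.5 in Z, 34.1 and 32.5 in cG, and 24.7 and 22.8 in ZcG. Its ZcG libraries lay between the single ligands without overlap, at -0.49 ± 0.13 against cG (edgeR, adjusted p = 0.014) and 0.29 ± 0.14 against Z (edgeR, adjusted p = 0.19). Cd274, which encodes the checkpoint ligand PD-L1, measured 21.5 and 27.7 CPM in Z, 43.6 and 41.9 in cG, and 31.4 and 31.3 in ZcG, at -0.45 ± 0.12 against cG (edgeR, adjusted p = 0.016). Both calls were lost when any 1 of the ZcG and cG libraries was left out (edgeR, adjusted p = 0.056 to 0.17). Fscn1, which bundles actin in mature dendritic cells, was the single member of 14 called against Z, near the 5.75% of all genes, at 0.85 ± 0.23, and not without the first ZcG or the second Z library (edgeR, adjusted p = 0.12 and 0.094).

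Of 18 Dectin-1 pathway genes, 1 rose against Z (Egr1, an immediate early transcription factor, by 0.31 ± 0.10) and 1 fell against cG (Card9, the adaptor below Syk). The former count is at the 5.75% of all genes called higher against Z, and for the latter 1.34% of all genes were called lower. Card9 measured 11.4 and 12.0 CPM in Z, 19.3 and 17.7 in cG, and 12.3 and 11.7 in ZcG, a difference of -0.63 ± 0.17 that was lost in each of the 4 fits leaving out a ZcG or cG library. Of 16 NF-kappaB and feedback genes, 4 rose against Z, namely Nfkbib (through a peak shared with Sirt2), the phosphatase gene Dusp1, Rel and Nfkb2, and against cG Zfp36 rose while Nfkbie and Socs1 fell. The shares of all genes were 5.75% called higher against Z, and 4.95% higher and 1.34% lower against cG. Only Nfkbib of these 7 kept its call with any 1 library left out, and the calls of Rel and Nfkbie were lost without any 1 of the 4. Zfp36, which speeds the decay of cytokine mRNA, measured 31.0 and 31.5 CPM in Z, 25.5 and 28.6 in cG, and 36.2 and 41.6 in ZcG, at 0.52 ± 0.12 against cG (edgeR, adjusted p = 0.0049). Without the second ZcG library the adjusted p was 0.18, and without the first cG library 0.10 (edgeR). Under total-count scaling the difference was 0.13 (edgeR, adjusted p = 0.56). In the AP-1 family all 11 genes were above 0 against Z, where Jund, Fosl2 and Maff were called, and 9 of 11 were above 0 against cG, where Jund was called. Of all genes, 61.9% were above 0 and 5.75% were called higher against Z, and 55.2% and 4.95% against cG. Jund, through a peak shared with Iqcn, measured 74.1 and 68.1 CPM in Z, 69.9 and 67.8 in cG, and 90.4 and 89.4 in ZcG, at 0.34 ± 0.10 against Z and 0.38 ± 0.09 against cG, but at -0.01 against cG under total-count scaling. Without 1 library these calls were lost as well (against Z without the second Z library, edgeR, adjusted p = 0.13; against cG without either ZcG or the second cG library, edgeR, adjusted p = 0.063 to 0.11), as were those of Egr1, Fosl2 and Maff.

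What depleted zymosan added to 3',3'-cGAMP at gene starts was smaller in size. Serpinb2, which encodes the plasminogen activator inhibitor of macrophages, measured 3.82 and 4.34 CPM in Ctrl, 14.3 and 16.3 in Z, 6.21 and 8.88 in cG, and 15.2 and 21.1 in ZcG (chr1:107510963-107511648). Both ZcG libraries were above both cG libraries, by 1.26 ± 0.18 (edgeR, adjusted p = 6.3e-08), and depleted zymosan alone raised the peak by 1.90 ± 0.21. Clcn4, a chloride transporter gene, measured 191 and 193 CPM in Z, 182 and 161 in cG, and 282 and 272 in ZcG (chr7:7297989-7301099). It rose against both, by 0.53 ± 0.08 and 0.69 ± 0.08, and ZcG was the highest group. Il3ra, the interleukin 3 receptor alpha chain, rose against cG by 0.69 ± 0.09, from 84.6 and 80.2 to 135 and 131 CPM, with 112 and 121 in Z. Csf2ra, the receptor chain for the GM-CSF in which these cells were grown, measured 57.3 and 63.2 CPM in Ctrl, 78.5 and 84.0 in Z, 69.1 and 73.7 in cG, and 98.8 and 103 in ZcG. It was called higher than in Z, at 0.31 ± 0.09, and than in cG, at 0.50 ± 0.09. Under total-count scaling the latter was not called (edgeR, adjusted p = 0.55), and without the second ZcG or the first Z library the former was not (edgeR, adjusted p = 0.12 and 0.13).

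Other gene starts higher than in cG split the libraries as the mitochondrial share does. Tasp1, Kifap3 and Tmx4 were at the Ctrl level in Z and ZcG and lower in cG. Kifap3, a kinesin-associated gene, measured 97.4 and 89.0 CPM in Ctrl, 93.5 and 98.0 in Z, 57.8 and 53.4 in cG, and 94.7 and 90.3 in ZcG. All 10 libraries of the 5 groups with the highest mean mitochondrial share (Ctrl, Z, ZcG, ScG and ZScG, where S is the ligand labelled SeV) exceeded all 26 others there. One library of ZS, which is not among these groups, has a share of 58.1%, within the range of the 10. Such a split was found at 31 of all tested peaks, of which 21 were among the 2176 higher than in cG and 0 among those called against Z. The median log2 difference of the 10 libraries from the 26 was 0.34 for peaks higher than in cG, -0.26 for those lower, 0.12 for the 459 peaks that depleted zymosan also raised alone, and 0.01 for all tested peaks. The 10 include ZcG and the 26 include cG, so that part of this is set by the choice of peaks.

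**Figure D4:**
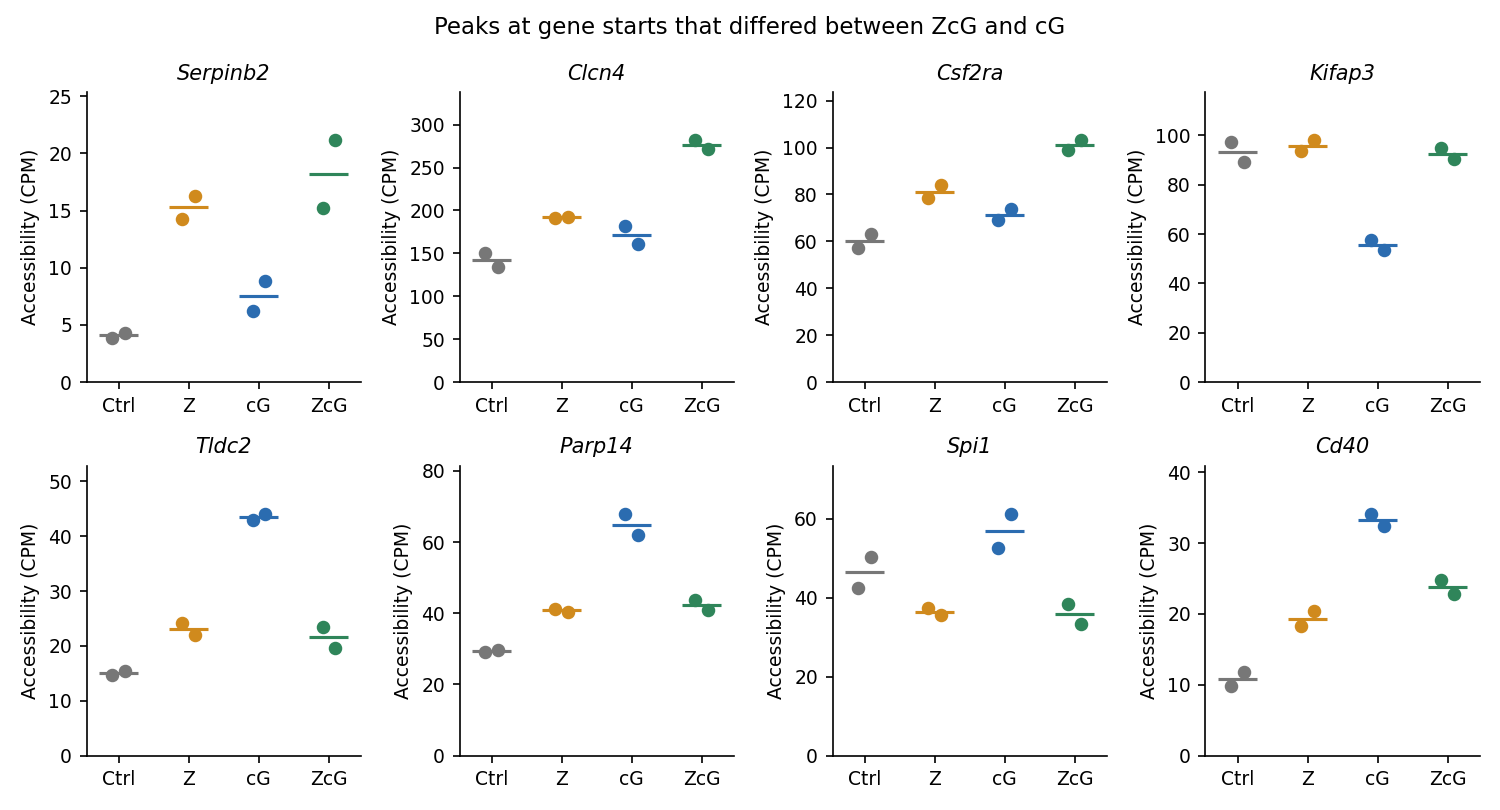
Accessibility in CPM (each axis starts at 0) of 8 gene-start peaks called between ZcG and cG, in Ctrl (grey), Z (orange), cG (blue) and ZcG (green). Each point is 1 library and the short line is the mean of 2. Serpinb2, Clcn4, Csf2ra and Kifap3 are higher in both ZcG libraries than in both cG libraries, and Tldc2, Parp14, Spi1 and Cd40 are lower.

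Among the 8 gene starts of lowest p-value lower with both ligands than with 3',3'-cGAMP, Tldc2 measured 14.7 and 15.3 CPM in Ctrl, 24.1 and 22 in Z, 43.0 and 44.1 in cG, and 23.5 and 19.7 in ZcG (chr2:157086529-157094690), so that the ZcG libraries were at the level of depleted zymosan alone. The difference from cG was -1.01 ± 0.13 (edgeR, adjusted p = 2.7e-09). Parp14, an interferon-inducible ADP-ribosyltransferase gene, measured 41.3 and 40.4 CPM in Z, 67.9 and 61.9 in cG, and 43.7 and 40.8 in ZcG, a difference of -0.62 ± 0.11 (edgeR, adjusted p = 3.2e-05). Spi1, which encodes PU.1, the myeloid lineage factor, measured 42.5 and 50.3 CPM in Ctrl, 37.3 and 35.7 in Z, 52.7 and 61.2 in cG, and 38.5 and 33.3 in ZcG, at -0.67 ± 0.11 against cG. The class I-like gene H2-T24 fell by 0.79 ± 0.14 and Ifi207, of the interferon-inducible p200 family, by 0.60 ± 0.12. Bace2, Tcirg1 and Zfp658 completed the 8, at -0.67 to -0.98. Bace2 and Zfp658 were not called without the second cG library (edgeR, adjusted p = 0.15 each), nor Tcirg1 without the second ZcG library (edgeR, adjusted p = 0.054). Cybb, the catalytic subunit of the phagocyte NADPH oxidase, measured 6.43 and 9.44 CPM in Z, 11.2 and 15.4 in cG, and 7.12 and 7.90 in ZcG, at -0.83 ± 0.22 against cG (edgeR, adjusted p = 0.013), lost without either ZcG library (edgeR, adjusted p = 0.14 and 0.075) or the second cG library (edgeR, adjusted p = 0.33). Of the 8 macrophage markers, 3 were also called lower than in cG (Adgre1, Fcgr1 and C1qb), beside 1.34% of all genes. Each of these calls was lost without 1 or more of the 4 libraries. The summed level of the 8 markers was 181 and 188 CPM in cG and 159 and 163 in ZcG. Their part in these results was not tested.

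The peaks added by 3',3'-cGAMP were compared with its action on unstimulated cells, for which cG against Ctrl shares no library with ZcG against Z. Alone, 3',3'-cGAMP raised 13916 peaks (11.6%) and lowered 13886 (11.6%). The comparison of cG with Ctrl also crosses the difference in mitochondrial share, so ligand and share cannot be told apart there either. Under total-count scaling it gave 27382 peaks higher and 6380 lower, and the median of all peaks was 0.34. Of the 4928 peaks that 3',3'-cGAMP raised in the presence of depleted zymosan, 2950 (59.9%, and 21.2% of the 13916) were also raised alone. Another 16 of the 4928 were lowered alone, and 92.7% had the same sign, beside 50.3% of all tested peaks. The 2950 became 1725 without the second ZcG library, 1735 without the second Z library and 3274 under total-count scaling. Of the 5914 lowered, 3495 (59.1%, and 25.2% of those lowered alone) were also lowered alone. The same sign was held by 90.5%, beside 49.7% of all tested peaks. Across all tested peaks, which are not independent replicates, r was 0.43.

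Depleted zymosan alone raised 4964 peaks (4.16%) and lowered 2096 (1.75%), in a comparison that shares no library with ZcG against cG. Of the 2176 peaks it raised in the presence of 3',3'-cGAMP, 459 (21.1%, and 9.25% of the 4964) were also raised alone. Another 8 of the 2176 were lowered alone, and 72.6% had the same sign, beside 50.1% of all tested peaks. Of the 1250 lowered, 74 (5.92%) were also lowered alone and 77 were raised alone, beside 1.75% and 4.16% of all tested peaks. The same sign was held by 57.7%, beside 49.9% of all tested peaks. Across peaks r was 0.13. The 459 became 178 to 324 with 1 library left out, 178 without the second ZcG, 212 without the second cG, 234 without the first cG, 287 without the first ZcG and 302 without the second Ctrl library, and 138 under total-count scaling. Among the 459 were gene starts of Vcan, a matrix proteoglycan, Il7, Ifi30, a thiol reductase of antigen processing, Il1f9, Abcb1b, Ak4 and Fpr1, all named after their values were seen. Under total-count scaling none of the 7 was called (edgeR, adjusted p = 0.093 to 0.73). Vcan measured 14.4 and 14.7 CPM in Z, 9.94 and 11.2 in cG, and 17.9 and 17.9 in ZcG, at 0.76 ± 0.18 against cG, and was not called without the second ZcG or the first cG library (edgeR, adjusted p = 0.057 and 0.071). Fpr1, the formyl peptide receptor, measured 14.6 and 12.3 CPM in Ctrl, 26.1 and 33.7 in Z, 13.8 and 13.5 in cG, and 19.3 and 21.0 in ZcG. Its ZcG libraries lay between the single ligands, at 0.56 ± 0.15 against cG and -0.57 ± 0.14 against Z. The call against cG was lost without the second ZcG library or either cG library (edgeR, adjusted p = 0.062 to 0.17), and that against Z without the first ZcG or the second Z library (edgeR, adjusted p = 0.070 and 0.26). A peak inside Unc5c showed the same order over a wider range, with 40.5 and 41.8 CPM in Z, 10.7 and 9.17 in cG, and 22.2 and 21.3 in ZcG.

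**Figure D5:**
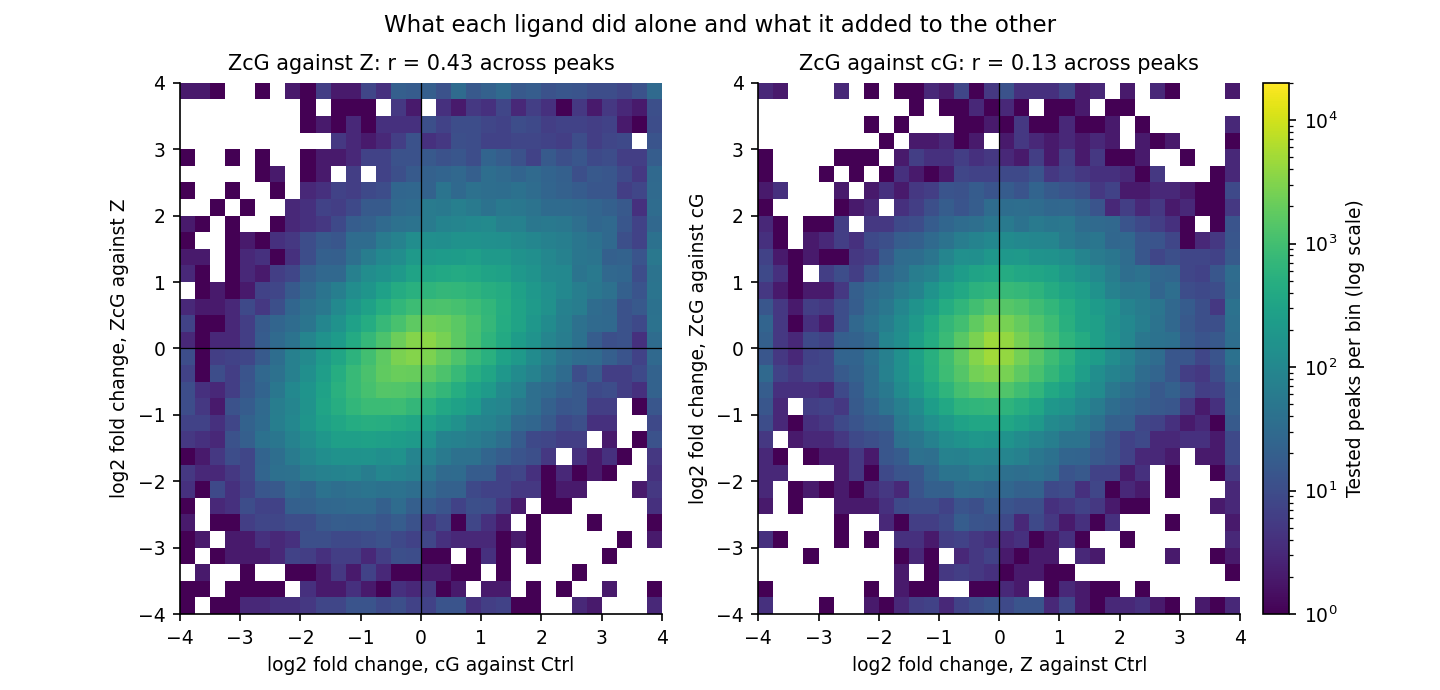
Log2 fold change of every tested peak for a ligand alone (x axis) and for the same ligand added to the other (y axis), coloured by the number of peaks per bin on a log scale, for 3',3'-cGAMP (left) and depleted zymosan (right). Values beyond the axes are drawn in the edge bins. The correlation across peaks is 0.43 on the left and 0.13 on the right.

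Both comparisons share the ZcG libraries, so that peaks called in both are counts of the design's own classes. Higher than with either ligand alone were 303 peaks, of which 31 (10.2%) lay at a gene start. Lower than with either were 253, of which 16 (6.32%) did, compared with 13.3% of all tested peaks. A further 4592 peaks were higher than in Z only, 1709 higher than in cG only, 5497 lower than in Z only and 964 lower than in cG only. There were 33 peaks higher than in Z and lower than in cG, among them Ccl5, Cxcl10, Oasl1 and Dhx58, and 164 lower than in Z and higher than in cG. With 1 library left out the 303 became 70 to 227, lowest without the second ZcG library, and the 253 became 58 to 189, lowest without the second cG library.

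Among peaks higher than with either ligand, named after their values were seen, one inside Slc36a4 (chr9:15725978-15726818) measured 6.23 and 5.02 CPM in Ctrl, 14.4 and 12.8 in Z, 13.4 and 17.4 in cG, and 35.0 and 39.4 in ZcG. It rose by 1.46 ± 0.15 against Z and 1.27 ± 0.14 against cG, and each ligand alone raised it too. A peak 3386 bp from Arl6 (chr16:59608782-59609563) measured 4.33 and 4.51 CPM in Z, 4.61 and 2.87 in cG, and 11.9 and 12.9 in ZcG. One inside Zbtb20, a transcription factor gene, measured 2.62 and 3.67 CPM in Z, 3.90 and 6.73 in cG, and 12.3 and 14.1 in ZcG. Lower than with either was a peak inside Mgat4a (chr1:37486255-37487450), with 18 and 13.6 CPM in Z, 8.99 and 9.81 in cG, and 4.83 and 3.90 in ZcG, at -1.85 ± 0.22 and -1.11 ± 0.22, the latter lost without the second ZcG library (edgeR, adjusted p = 0.053).

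The largest fitted fold changes came from peaks of few counts. A peak between genes, nearest to Trpm3, had 0 and 0 counts in Z, 29 and 35 in cG, and 26 and 18 in ZcG, and was at least 14.6-fold higher in ZcG than in Z, taking a limit of 3 counts over the group. One inside Dtd1 had 0 and 0 counts in Z and 25 and 18 in ZcG, at least 14.2-fold higher. One nearest to Adgrl3 had 22 and 31 counts in Z, 16 and 9 in cG, and 0 and 0 in ZcG, at least 17.8-fold lower than in Z and at least 5.43-fold lower than in cG, where the call was lost without either ZcG library or the first cG library (edgeR, adjusted p = 0.057 to 0.097). Among 4 peaks chosen as higher than with either ligand by the smaller of their 2 fold changes, 3 had 0 counts in both single ligands, and at most 8 in a ZcG library. These limits cover counting error only.

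The interaction, ZcG minus Z minus cG plus Ctrl on the log2 scale, tested whether a ligand acted differently on cells given the other ligand than on unstimulated cells. It was called above 0 at 900 peaks (0.753%) and below 0 at 2080 (1.74%), so that 30.2% of calls were above 0, compared with 3.39% under total-count scaling, where the median shifted by -0.37. It contains cG and therefore crosses the mitochondrial share. At gene starts, 2.41% of genes were called above 0 and 1.14% below. Ell2, an elongation factor gene, had the lowest p-value: a peak inside it (chr13:75754043-75755548) measured 2.84 and 2.70 CPM in Ctrl, 27.6 and 27.3 in Z, 16.6 and 19.2 in cG, and 24.3 and 20.9 in ZcG. Each ligand alone raised it, by 3.30 and 2.69, the combination stayed at the level of the single ligands, and the interaction was -2.97 ± 0.24 (edgeR, adjusted p = 4.9e-21). A peak in Cemip2 had the same form, with 43.7 and 50.7 CPM in Z, 41.8 and 44.8 in cG, 45.7 and 46.9 in ZcG and 14.0 and 12.2 in Ctrl. In the other direction, a peak inside Peak1 measured 44.6 and 42.6 CPM in Ctrl, 26.4 and 29.8 in Z, 25.1 and 17.3 in cG, and 44.6 and 47.7 in ZcG, with an interaction of 1.76 ± 0.20 (edgeR, adjusted p = 1.9e-11). Of the 22 interferon-stimulated genes, 11 were called below 0 and 0 above, with a median of -0.60 beside 0.09 for all genes. Alone, 3',3'-cGAMP raised 20 of the 22, beside 11.6% of all tested peaks, in a comparison that crosses the mitochondrial share. Depleted zymosan alone raised 8 of the 22, beside 4.16% of all tested peaks.

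The same additions made to cells that also received SeV gave few calls. Adding 3',3'-cGAMP to depleted zymosan plus SeV raised 17 peaks (0.0142%) and lowered 53 (0.0444%), a total of 70 that became 9 to 53 with 1 library left out, lowest without the first ZS library. The mitochondrial share was 58.1% and 51.0% in depleted zymosan plus SeV (ZS) and 57.9% and 58.7% with 3',3'-cGAMP added (ZScG). This comparison thus crosses the share for 1 ZS library. Of the 4928 peaks raised without SeV, 8 were raised there (47.1% of the 17). The same sign was held by 62.8%, beside 49.1% of all tested peaks. Of the 5914 lowered, 34 were lowered there (64.2% of the 53). For these, 69.3% had the same sign, beside 50.9% of all tested peaks. Adding depleted zymosan to 3',3'-cGAMP plus SeV raised 387 peaks (0.324%) and lowered 538 (0.45%), in groups that both have a high mitochondrial share. That total of 925 became 153 to 457 with 1 library left out, lowest without the first ScG library, so that overlaps with these lists rest on counts that move with single libraries. Of the 2176 raised without SeV, 86 were raised there (22.2% of the 387) and 32 were lowered. The same sign was held by 45.6%, beside 48.2% of all tested peaks. Of the 1250 lowered without SeV, 21 were lowered there (3.90% of the 538) and 0 were raised. For these, 69.1% had the same sign, beside 51.8% of all tested peaks. Interferon-stimulated genes had 0 of 22 called in that comparison and 14 below 0, with a median of -0.09.

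The called peaks differed in place from all tested peaks, of which 13.3% lay at a gene start. The share was 15.8% of those higher than in Z and 6.71% of those lower, and 28.5% of those higher than in cG and 15.3% of those lower. For peaks higher than in cG that depleted zymosan also raised alone it was 6.10%, and 22.2% of these lay over 50 kb from a gene, compared with 12.2% of all peaks. Called peaks were also wider, with a median of 623 to 801 bp over the 4 directions, compared with 451 bp for all peaks. They had higher levels as well, with a median CPM over the 6 libraries of 4.28 to 11.1, compared with 2.07. The part of level in these differences of place and width was not tested.

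The 6 motifs were counted, on both strands, in the 12055 RefSeq promoter windows of 300 bases that overlap a tested peak. The letters GAAANNGAA of the ISRE were held by 7.17% of these windows (8.13% of all 21237 windows), by 5.84% of those in peaks higher than in Z, by 7.51% of those lower, by 4.32% of those higher than in cG, and by 22 of 156 (14.1%) of those lower than in cG. Among windows in peaks with an interaction below 0, 29 of 127 (22.8%) held it, and 23 (18.1%) held AP-1, compared with 4.95% of the windows overlapping a tested peak (6.99% of all windows). The C/EBP letters were in 15.0% of windows lower than in Z, compared with 8.35% (10.2% of all windows). The cyclic AMP response element, TGACGTCA, was in 4.80% of windows higher than in Z and 5.35% of those higher than in cG, compared with 3.24% (2.24% of all windows). ETS (GAGGAAGT) was in 6.41% of windows lower than in cG, compared with 3.42% (3.13% of all windows), and kappaB in 2.56%, compared with 1.05% (1.08% of all windows). These are shares without a test, and motifs can overlap.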

How the data were processed

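The authors deposited raw counts per peak, whole numbers without normalization, for 119751 peaks in 36 libraries (18 groups of 2), with a list of peak positions. Per the submitters' processing notes, the build was mm10 and the tools were Bowtie2 2.2.9, MACS2 (given as version 1.4), bedtools and featureCounts. How duplicates and transposase cut sites were handled, and whether libraries were pooled for peak calling, is not given in the sources used here. All columns were matched to samples by title (0 unused). Reads carry no molecular identifiers, so limits from counts cover counting error only.

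The mitochondrial peak was left out, which left 9395816 to 13189418 counts in the 6 libraries, and filterByExpr (minimum count 10) removed 286 peaks. After TMM scaling, counts of all 36 libraries entered 1 quasi-likelihood fit in edgeR 4.0.16 (R 4.3.3, limma 3.58.1) with 1 coefficient per group and 18 residual degrees of freedom. P-values were adjusted by Benjamini-Hochberg over 119464 peaks in each comparison. The fit was tested on simulated data, drawn with the same dispersion for all peaks and no effect of the mitochondrial share. That test therefore does not bear on such an effect or on an outlying library.

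A gene was linked to tested peaks within 1 kb of its RefSeq start (GRCm38.p6 promoter table, 17491 of 21883 protein-coding genes) or of either gene end for the other 4392 (among them Ccl5, Ccl4, Cd40, Dhx58, Spi1 and Msr1), and was counted by the linked peak of highest mean CPM. Named peaks were, per comparison and direction, the 4 of largest fold and the 8 gene starts of lowest p-value without overlap between groups, the 3 of lowest p-value for each sign of the interaction, up to 4 genes per list and list genes called in both comparisons, and 4 higher and 4 lower than both single ligands. Some peaks named by these rules are not reported here. The comparisons, lists and rules were chosen with earlier results of these data known. Alternatives were DESeq2 1.42.0, other scalings, filters and fits, thinning to 1 depth, and leaving out each library.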

Additional observations from a re-analysis of the deposited data

Results flagged for a closer look

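The effect of a ligand differed between unstimulated cells and cells given the other ligand, by the test of the interaction, at 900 peaks above 0 and 2080 below 0. An interaction below 0 means that the combination was lower than the sum of the 2 single effects on the log2 scale. Many peaks named here were chosen because ZcG was called lower or higher than cG, a difference that the interaction contains, so their signs are a description. Below 0 were Tldc2 at -1.63, Oasl1 at -1.28, Gbp5 at -1.22, Parp14 at -1.09, Cxcl10 at -1.05, Cmpk2 at -0.92, H2-T24 at -0.73 and Dhx58 at -0.63. Also below 0 were Cd40 at -1.33, the second peak at Ccl4 at -1.32, Cybb at -1.29, Cxcl2 at -0.86, Ccl5 at -0.83, Nfkbie at -0.75 and Cd274 at -0.72. The remaining peaks below 0 were those in Ell2 at -2.97, nearest to Mrpl39 at -1.99, in Cemip2 at -1.76, at Bace2 at -1.75 and at Tcirg1 at -1.23.

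Above 0 were peaks in Peak1 at 1.76, nearest to Samd9l at 1.23, at Gm20594 at 1.19, over Cmss1 and Filip1l at 0.92, at Tmx4 at 0.82, at Nr1h2 and Tasp1 at 0.72 each, at Kifap3 at 0.69, at Hsd11b1 at 0.67 and at Il3ra at 0.42. The interaction includes the cG libraries, whose mitochondrial share (45% and 47.3%) is below that of Ctrl, Z and ZcG, and the part of that share was not tested. With 1 library left out, the interaction was lost in at least 1 fit for Ccl5, the second Ccl4 peak, Cybb, Cd274, Dhx58, H2-T24, Hsd11b1, Il3ra, Nr1h2 and Tcirg1. Scaling by total counts ended the interaction of Hsd11b1, Il3ra, Kifap3, Nr1h2 and Tasp1 (edgeR, adjusted p = 0.13 to 0.88). Groups of 2 libraries allow no check for an outlying library.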

How the results depend on the processing

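Scaling by total counts gave, against cG, 591 peaks higher and 17482 lower, and 293 and 8352 for the interaction above and below 0, with 138 zymosan-added peaks also higher with zymosan alone. It turned Jund against cG to -0.0128. A fit of only the Ctrl, Z, cG and ZcG libraries gave 1366 and 530 against cG, 528 and 1081 for the interaction and 265 zymosan-added peaks. Thinned libraries gave 735 lower than in cG and 1372 below 0 for the interaction. At an adjusted p under 0.01 the counts were 2274 and 2955 against Z, 875 and 337 against cG, 230 and 915 for the interaction, 92 higher and 50 lower than both single ligands, where fewer calls follow from the threshold itself. With 5 kb in place of 1 kb around gene starts, called members became 7 (interferon-stimulated), 2 (cGAS-STING) and 2 (uptake) against Z and 1 (cGAS-STING) and 1 (uptake) against cG. The cause of the other shifts was not tested.

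Leaving out each library in turn gave 2576 to 3509 higher and 2726 to 3558 lower than in Z, 757 to 1267 higher and 243 to 878 lower than in cG, and 368 to 826 above and 1098 to 1870 below 0 for the interaction. It gave 3566 to 4287 calls for Z against Ctrl, 17405 to 21205 for cG against Ctrl, 16320 to 19680 for ZcG against Ctrl, 9 to 53 for ZScG against ZS and 153 to 457 for ZScG against ScG. Peaks added by cGAMP and also higher with it alone numbered 1725 to 2552, those of zymosan 178 to 324, and those higher and lower than both single ligands 70 to 227 and 58 to 189. The members of the list counted by sign moved to 19 to 21 and 18 to 20 (interferon-stimulated, below 0 against cG and above 0 against Z), 12 to 13 (maturation) and 10 to 11 (AP-1).

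Deviations of libraries with the same replicate number correlated at -0.0120 to 0.0134 over all tested peaks. Counting noise at peaks of few counts can hide a shared effect, so this does not decide whether the samples were paired. With the replicate number as a block, 4907 and 5900 peaks were called against Z, 2187 and 1248 against cG, and 886 and 2054 for the interaction. Of 240 called values of named peaks and list genes, 239 kept their direction and call with the block, 240 with DESeq2 size factors and 207 under total-count scaling. Without the second ZcG library 146 of 240 did. The list directions, the list genes and the named peaks under further settings were alternatives chosen after seeing the data. Thinned to the lowest depth, 199 of 237 kept theirs, and calls at abundant peaks were among those lost, such as Jund against Z (edgeR, adjusted p = 0.060) and Cd274 against cG (edgeR, adjusted p = 0.090).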
